A study of Mus musculus with 24 samples.

Results

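Pulmonary fibroblasts labelled TLR4-/- were treated with recombinant mouse TGF-β1 (rmTGF-β1) or with phosphate-buffered saline (PBS), and the 6 libraries of these conditions, 3 of each, were compared across all expressed genes. They were chosen by the genotype and treatment given in their labels and are 6 of the 24 libraries of the series. The cells were grown from lungs of C57BL/6 mice aged 4 to 8 weeks, each group of cells from 3 to 4 pooled lungs. They were used at passages 3 to 6 after a night in the reduced serum medium Opti-MEM. The dose of rmTGF-β1 was 2 ng/ml and RNA was taken after 24 h. The other 18 libraries are cells labelled TLR4-/- with 1 μg/ml recombinant mouse CIRP (rmCIRP) or with rmCIRP and rmTGF-β1 together, and wild type (WT) C57BL/6 cells with the same 4 treatments. They served as comparisons and, in the model, as a shared estimate of the spread. The allele carried by the TLR4-/- mice is not named in the labels, and nothing says whether the 3 libraries of a condition came from separate cultures, so p-values measure the spread between these libraries, which may be technical.

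TGF-β1 is a secreted cytokine that binds the type II receptor TGFBR2, which activates the type I receptor TGFBR1, and this kinase phosphorylates SMAD2 and SMAD3. These join SMAD4 in the nucleus and act on target genes with partners such as AP-1. The pathway induces its own inhibitors, SMAD7, SKIL and PMEPA1 among them. In lung fibroblasts TGF-β1 is the best known inducer of the myofibroblast state, with contractile fibers and deposition of collagen, fibronectin and elastin. TLR4 is the receptor for lipopolysaccharide and for damage signals such as extracellular CIRP, and is not a receptor of TGF-β1.

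Each library held 31585969 to 37949832 reads counted on genes in these 6 libraries, and 29853346 to 39664606 in all 24. Normalized counts are counts divided by a median-of-ratios size factor, and serve to describe levels. Tlr4 itself had 927, 892 and 891 normalized counts in PBS libraries 1, 2 and 3 and 702, 808 and 769 with rmTGF-β1, against 759 ± 41.9 (SD, n = 3) in WT cells with PBS. Its mRNA was thus counted in every library labelled TLR4-/-, and a count per gene does not show whether an exon is missing. Xist, transcribed from the inactive X chromosome, had 4619, 4814 and 5055 normalized counts with PBS and 4705, 4898 and 5371 with rmTGF-β1, and Ddx3y of the Y chromosome had 2317, 2395 and 2202 and 1973, 1847 and 2211, so RNA of both sexes was present in each library. Of 5 sex-linked genes, 2 were lower with rmTGF-β1 in the test described below and 3 did not pass, against 11.7% of all genes lower. Their log2 fold changes were -0.20 to 0.05. All 12 fibroblast markers were counted in every library, with summed normalized counts of 558932 to 620842 with PBS and 575173 to 605748 with rmTGF-β1. All 16 macrophage markers were counted too, with sums of 324173 to 373062 and 340646 to 355927, most of it from the lysozyme gene Lyz2. Of 11 epithelial markers, 6 had at most 3 reads in every one of the 6 libraries, and the epithelial sums were 329 to 349.7 and 302 to 324. In such bulk RNA, fewer cells of a type and less RNA per cell cannot be told apart. Macrophage markers were thus plentiful in cultures labelled fibroblasts, and which cells the RNA of a gene named below came from was not tested. The third rmTGF-β1 library departed from the other 2 by more than they did from each other. The chi-square per degree of freedom was 11.9 and 15.6 against 3.57. Named genes that no longer passed the test without it are noted. Fold changes are mostly given only with it, and some of these moved by much without it.

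With rmTGF-β1, 3884 of the 16258 genes tested (23.9%) passed an adjusted p of 0.1, the study's threshold, by the quasi-likelihood test of edgeR, adjusted by Benjamini and Hochberg's method. Of all genes tested, 1975 (12.1%) were higher and 1909 (11.7%) lower. Most differences were small: 185 genes (1.14%) were higher by at least 1 on the log2 scale, and 106 (0.652%) were lower by at least as much. The 3 rmTGF-β1 libraries lay above all 3 PBS libraries for 15.9% of genes tested and below them for 17.9%. Without the third rmTGF-β1 library, 2517 genes were called, of which 2366 were among the 3884 and none of the 3884 changed direction. In that fit 8.00% of all genes tested were called higher and 7.23% lower. List counts without that library are set against these shares, and the other list counts against 12.1% and 11.7%. The lists and their members were chosen with earlier results of these data known, so their counts and medians are descriptions only.

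**Figure D1:**
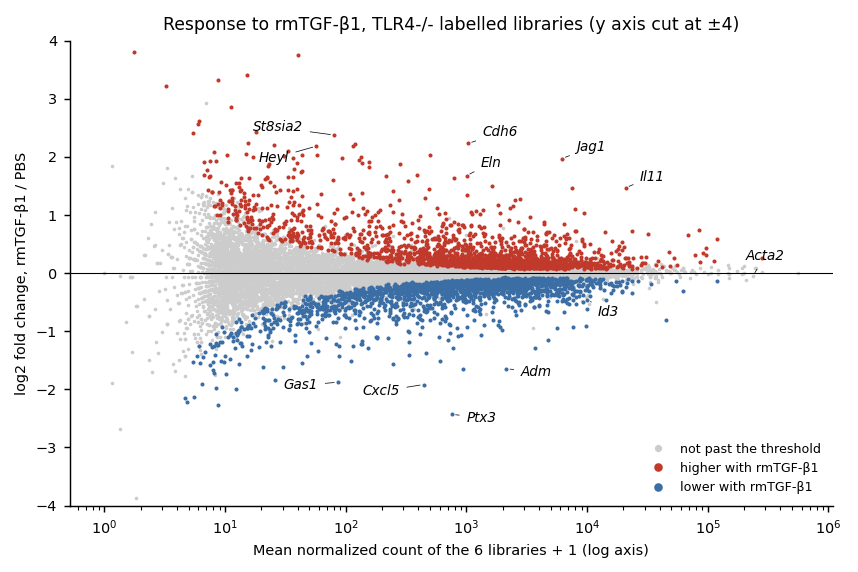
Each point is one of the 16258 genes tested in the 6 libraries labelled TLR4-/-, with the mean normalized count plus 1 on a log x axis and the log2 fold change of rmTGF-β1 over PBS on the y axis, which stops at 4 and leaves out values beyond it. The 1975 genes in red were higher and the 1909 in blue lower past the threshold; Cdh6, Jag1 and Il11 stand high on the red side and Ptx3, Cxcl5 and Adm low on the blue side, while Acta2 sits at the zero line.

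Of the genes that averaged 50 normalized counts or more and did not overlap between the conditions, those with the largest rises included enzymes, adhesion proteins and parts of the Notch pathway. St8sia2, a sialyltransferase that makes polysialic acid, had 22.7, 32.9 and 21.9 normalized counts with PBS and 144, 84.0 and 168 with rmTGF-β1, a log2 fold change of 2.38 (SE 0.23, edgeR adjusted p = 3.8e-07). Cdh6, which encodes the adhesion protein cadherin 6, rose from 314, 421 and 363 normalized counts to 1679.6, 1162 and 2271, or 4.70-fold, with a log2 fold change of 2.23 (SE 0.16, edgeR adjusted p = 7.3e-09). For both genes every rmTGF-β1 library was well above every PBS library, and the second rmTGF-β1 library was the lowest of the 3. The Notch ligand gene Jag1 had 2619.9, 2542 and 2414 normalized counts with PBS and 9466, 6846 and 13280.2 with rmTGF-β1, a log2 fold change of 1.97 (SE 0.14, edgeR adjusted p = 5.5e-09). Heyl, a transcriptional repressor induced by Notch receptors, also rose, from 16.8, 22.3 and 21.9 to 100.4, 61.6 and 113 normalized counts and a log2 fold change of 2.19 (SE 0.29, edgeR adjusted p = 1.3e-05). In both, too, the second rmTGF-β1 library was the lowest of the 3 and the third the highest.

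The other large rises were those of Xirp2, an actin-binding repeat protein of striated muscle (log2 fold change 2.22, SE 0.41), Odaph, an enamel matrix gene (2.18, SE 0.26), the orphan adhesion receptor gene Adgra1 (2.04, SE 0.26) and the voltage-gated potassium channel gene Kcnh1 (2.00, SE 0.27). Cxcr6, a chemokine receptor, rose by 1.98 (SE 0.31), the hairless co-repressor gene Hr by 1.94 (SE 0.19) and Gjb2, which encodes connexin 26, by 1.91 (SE 0.29). Xirp2 was the most uneven of them, at 141, 77.6 and 359.8 normalized counts with rmTGF-β1 against 45.4, 41.3 and 39.8 with PBS. Bc1, a short non-coding RNA made by RNA polymerase III, had 243, 160.0 and 181 normalized counts with PBS and 807, 1206 and 393 with rmTGF-β1, a log2 fold change of 2.03 (SE 0.49, edgeR adjusted p = 0.0055). It was high in the other controls of the series, however, at 689, 1701 and 746 in cells labelled TLR4-/- with rmCIRP and 1101 ± 291 (SD, n = 3) in WT cells with PBS. Without the third rmTGF-β1 library the log2 fold change was 1.53 for Cxcr6, 1.75 for Hr, 1.29 for Gjb2 and 2.37 for Bc1.

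**Figure D2:**
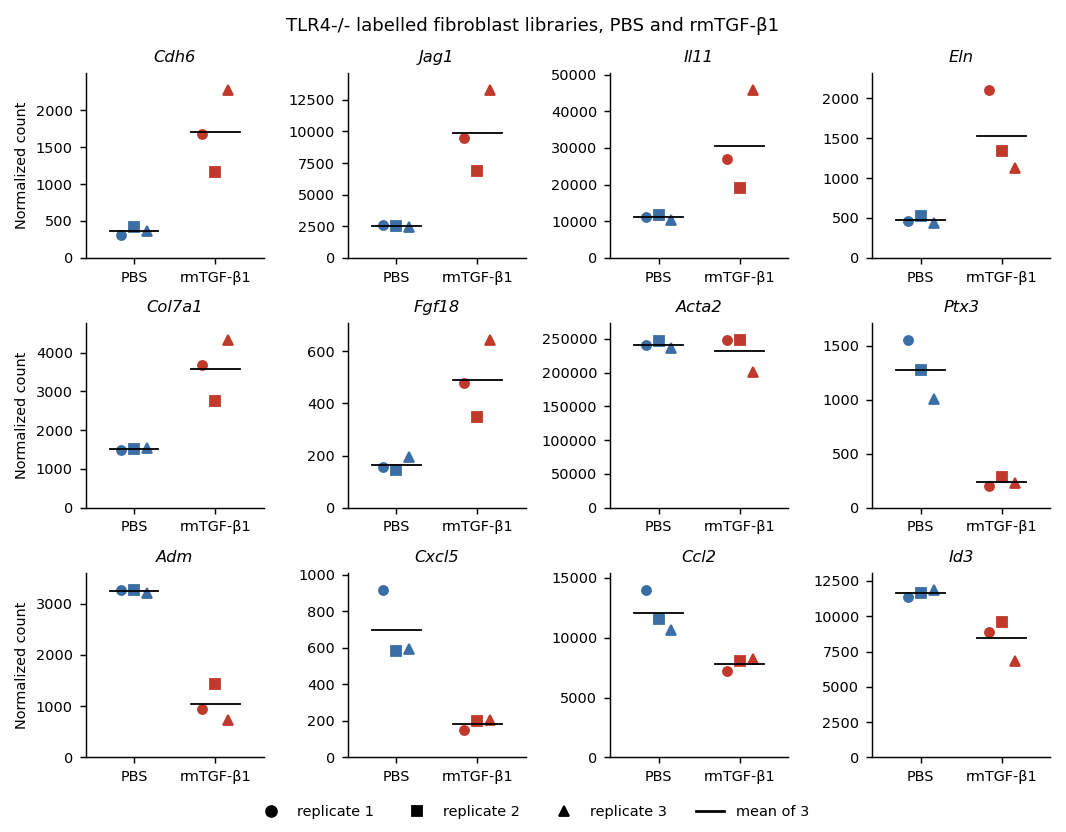
Normalized counts of 12 genes in the 3 PBS (blue) and 3 rmTGF-β1 (red) libraries labelled TLR4-/-; symbols give the replicate number, bars the mean, and each y axis starts at 0. For Cdh6, Jag1, Il11, Eln, Col7a1 and Fgf18 all red points lie above all blue ones, for Ptx3, Adm, Cxcl5, Ccl2 and Id3 all lie below, and for Acta2 the colors overlap.

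The largest falls by the same rule included secreted mediators of inflammation and the gene of a vasodilator. Ptx3, the long pentraxin that opsonizes microbes, fell from 1555, 1277 and 1005 normalized counts to 199.8, 287 and 226, 5.39-fold lower, with a log2 fold change of -2.43 (SE 0.20, edgeR adjusted p = 4.2e-08). Adm, the gene of the vasodilator peptide adrenomedullin, fell from 3276, 3271 and 3202 to 945, 1436 and 741, a log2 fold change of -1.65 (SE 0.14, edgeR adjusted p = 4.9e-08). The neutrophil chemokine gene Cxcl5 had 919.7, 584 and 592 normalized counts with PBS and 149.6, 199.8 and 205 with rmTGF-β1, a log2 fold change of -1.92 (SE 0.30, edgeR adjusted p = 1.1e-04). None of these 3 genes had an rmTGF-β1 library that reached the lowest PBS library. Gas1, a growth arrest gene whose product binds hedgehog, fell by 1.88 on the log2 scale (SE 0.26), and Dio2, which activates thyroid hormone, by 1.64 (SE 0.38). Inhbb, the βB subunit of activins and inhibins, fell by 1.52 (SE 0.17), the cytokine gene Tslp by 1.42 (SE 0.37) and the actin-associated adaptor gene Sorbs2 by 1.41 (SE 0.15). The list closed with the steroid dehydrogenase gene Hsd3b6 (-1.37, SE 0.18), the heparan sulfate sulfotransferase gene Hs3st1 (-1.34, SE 0.40) and Pi15, a peptidase inhibitor gene (-1.29, SE 0.26). Hsd3b6 belongs to a family of near-identical genes, so its count is uncertain, and the call of Hs3st1 was lost without PBS library 1 (-1.12).

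Genes that report or restrain SMAD signaling moved in both directions. Of the 18 genes listed as SMAD feedback and ID targets, 11 rose, 5 fell and 2 did not pass the test, with a median log2 fold change of 0.15 against -0.0015 over all genes tested. The inhibitors rose modestly: Pmepa1, which takes receptor SMADs away from the receptor, by 0.55 (SE 0.04), Skil, a SMAD co-repressor, by 0.16 (SE 0.04) and Smad7, which targets the type I receptor, by 0.16 (SE 0.05). Pmepa1 had 12555, 13229 and 13497 normalized counts with PBS and 19374, 17403 and 20367 with rmTGF-β1. Nox4, an oxidase that makes hydrogen peroxide in myofibroblasts, rose by 0.83 (SE 0.14), and the transcriptional repressor gene Bhlhe40 by 0.88 (SE 0.10). All 4 ID genes, dominant-negative helix-loop-helix factors best known as targets of BMP signaling, fell. Id3 went from 11359, 11639.7 and 11889 normalized counts to 8910.0, 9585 and 6817, a log2 fold change of -0.46 (SE 0.12, edgeR adjusted p = 0.011), while Id1, Id2 and Id4 fell by 0.35, 0.41 and 0.86 on that scale. Smad6, the inhibitory SMAD of the BMP branch, fell by 0.62 (SE 0.16). Without the third rmTGF-β1 library, 6 rose and 5 fell, while the share of all genes called higher went from 12.1% to 8.00%, and Skil and Smad7 were no longer called, at 0.11 and 0.11. Skil was also not called when the 6 libraries were fitted alone (edgeR adjusted p = 0.105).

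Among 26 genes for TGF-β ligands, latent binding proteins, receptors and SMADs, 8 rose and 8 fell, and the median was 0.01. Tgfb1, the ligand gene itself, had 4558, 4502 and 5254 normalized counts with PBS and 7176, 6156 and 8241 with rmTGF-β1, a log2 fold change of 0.60 (SE 0.08, edgeR adjusted p = 1.1e-05). The receptor gene Tgfbr1 rose by 0.55 (SE 0.09), the activin receptor gene Acvr1 by 0.70 (SE 0.05) and the activin A subunit gene Inhba by 0.74 (SE 0.16). Tgfbr3, the co-receptor betaglycan, fell from 1323, 1116 and 1007 normalized counts to 506, 572 and 544 (-1.08, SE 0.13), and Smad3 fell by 0.56 (SE 0.13). For Tgfb1 and Tgfbr3 the conditions did not overlap. In the fit without the third rmTGF-β1 library, 7 rose and 6 fell in the list, and the value of Inhba was 0.46.

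The contractile genes of the myofibroblast were, as a list, near the middle of all genes. Of 25 tested, 2 rose, 3 fell and 20 did not pass the test, and their median log2 fold change was -0.02. Acta2, smooth muscle α-actin and the standard myofibroblast marker, had 240715, 246387 and 236537 normalized counts with PBS and 248296, 248723 and 201060.0 with rmTGF-β1, and its log2 fold change was -0.05 (SE 0.10, edgeR adjusted p = 0.81). The libraries of both conditions overlapped, and the third rmTGF-β1 library was the lowest of all 6. The values were -0.02 (SE 0.13) for calponin 1 (Cnn1) and -0.07 (SE 0.10) for the myosin light chain gene Myl9, neither past the threshold. Tagln, the calponin-related protein SM22, fell by 0.40 (SE 0.11) while Smtn, smoothelin, rose by 0.29 (SE 0.04). Without the third rmTGF-β1 library, 3 rose and 1 fell, the list median was 0.03, and the values turned sign to 0.05 for Acta2, 0.08 for Cnn1 and 0.01 for Myl9, none past the threshold.

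Matrix genes responded unevenly, and elastin rose more than any collagen named here. Eln, the gene of tropoelastin, had 468, 526 and 442 normalized counts with PBS and 2101, 1338 and 1129.9 with rmTGF-β1, 3.20-fold higher, with a log2 fold change of 1.68 (SE 0.27, edgeR adjusted p = 1.1e-04). Col7a1, the collagen of anchoring fibrils, rose from 1481, 1510.1 and 1532 to 3682, 2751 and 4329 (1.26, SE 0.13), Col5a3 by 1.10 (SE 0.16) and Col27a1 by 1.02 (SE 0.12). For the main fibril collagens the log2 fold changes were 0.10 (SE 0.08) for Col1a1 and -0.08 (SE 0.07) for Col1a2, neither past the threshold, and Col3a1 fell by 0.32 (SE 0.12), a call lost without PBS libraries 1 or 2 or rmTGF-β1 libraries 1, 2 or 3 (-0.32 to -0.22). Col1a1 had 248187, 235364 and 240032 normalized counts with PBS and 268347, 261565 and 239692 with rmTGF-β1, ranges that overlap. In all, 4 of 11 fibrillar collagens rose and 2 fell, against 3 and 4 of 19 non-fibrillar ones, with medians of 0.10 and -0.01. Of 13 genes of the elastic fiber and fibronectin network 3 rose and 1 fell, and fibronectin itself (Fn1) had a log2 fold change of 0.09 (SE 0.06), which did not pass. When the third rmTGF-β1 library was left out, 3 rose and 1 fell of the fibrillar list and 2 rose and 2 fell of the non-fibrillar one. The log2 fold changes in that fit were 1.86 for Eln, 1.10 for Col7a1, 0.81 for Col5a3 and 0.81 for Col27a1.

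Of 19 enzymes that modify collagen 6 rose, the other 13 did not pass, and the median was 0.09. The lysyl oxidase genes Lox and Loxl2, which start collagen and elastin crosslinks, rose by 0.44 (SE 0.07) and 0.27 (SE 0.05). Among 24 matricellular and proteoglycan genes, 6 rose and 2 fell. Tgfbi, a secreted integrin ligand named for its induction by TGF-β, rose by 0.71 (SE 0.12), the hyaluronan synthase gene Has2 by 0.72 (SE 0.07), Ccn4 by 0.54 (SE 0.07) and Ccn2, connective tissue growth factor, by 0.35 (SE 0.09). With the third rmTGF-β1 library left out, 7 rose and the falls were lost. Ccn2 had 75848, 81795 and 81786 normalized counts with PBS and 104191, 101849 and 97728 with rmTGF-β1. Of 24 genes of proteases and their inhibitors, 6 rose and 6 fell. Timp3, an inhibitor of metalloproteinases, rose from 54832, 58210.2 and 46744 normalized counts to 80605, 78319 and 93016 (0.66, SE 0.07) and Timp1, of the same family, by 0.32 (SE 0.07). The aggrecanase genes Adamts5 and Adamts1 fell by 1.28 (SE 0.16) and 0.90 (SE 0.09), and the urokinase gene Plau by 0.52 (SE 0.12).

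**Figure D3:**
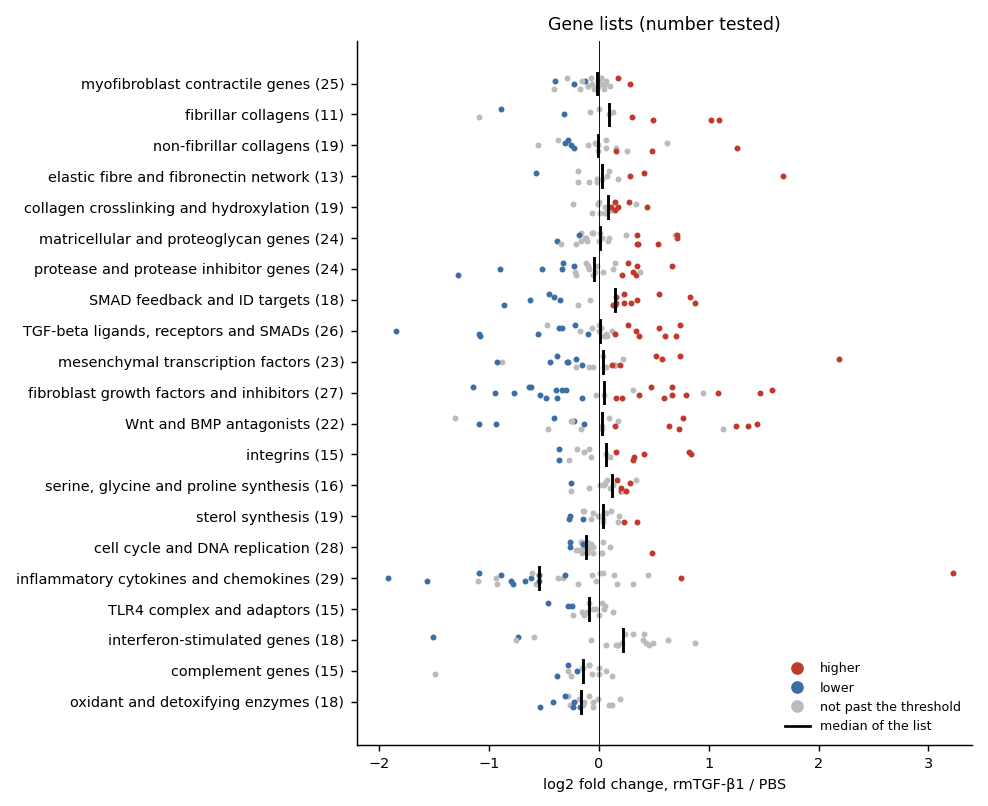
Each point is one tested gene of a list, placed by its log2 fold change of rmTGF-β1 over PBS in the libraries labelled TLR4-/-; red genes were higher and blue genes lower past the threshold, grey ones did not pass, and the black bar is the median of the list. The medians lie between -0.55 for the inflammatory cytokines and chemokines and 0.22 for the interferon-stimulated genes, and most lists hold both red and blue points.

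Of 27 genes of growth factors, their receptors and binding proteins, 11 rose, 12 fell and 4 did not pass the test, against 12.1% and 11.7% of all genes tested. Il11, an interleukin 6 family cytokine that fibroblasts secrete in response to TGF-β1, had 11144, 11802 and 10388 normalized counts with PBS and 27069, 19038 and 45813 with rmTGF-β1, a log2 fold change of 1.47 (SE 0.24, edgeR adjusted p = 1.7e-04). The third rmTGF-β1 library had more than any other, and all 3 were above all PBS libraries. With the third rmTGF-β1 library left out, the log2 fold change of Il11 was 1.06 (SE 0.21). Fgf18 rose from 157, 144 and 194 to 478, 349 and 643 normalized counts (1.58, SE 0.18), the platelet-derived growth factor gene Pdgfc by 1.09 (SE 0.09), and the vascular growth factor gene Vegfa by 0.67 (SE 0.10). Fgf10, needed for lung budding, fell by 0.94 (SE 0.13) and Hgf, hepatocyte growth factor, by 0.62 (SE 0.16). Pdgfra, a receptor of alveolar fibroblasts, fell by 0.63 (SE 0.12), and Igfbp5, which binds insulin-like growth factors, by 1.14 (SE 0.18). In the fit without the third rmTGF-β1 library, 11 rose and 10 fell in the list.

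Il11, which rose in all 3 libraries, has 2 starts in RefSeq. The 250 bases before 1 of them are shown because they hold a match to the AP-1 motif TGANTCA. Those before the other start hold no match. Whether AP-1 or SMADs act at the match was not tested. These bases lie at chr7:4778142-4778391 on the minus strand of GRCm38.p6, and capitals mark the match. The motif, which reads the same on both strands, was found before 5.06% of the 14896 starts of genes tested, before 14.2% of 162 starts of genes called higher by at least 1 on the log2 scale, and before 11.8% of 85 starts of genes called lower by at least 1. The SMAD palindrome GTCTAGAC was found before none of the starts in either group and before 0.181% of those of all genes tested. For so rare a motif, groups of 162 and 85 starts are too small for its absence to show anything.
Il11: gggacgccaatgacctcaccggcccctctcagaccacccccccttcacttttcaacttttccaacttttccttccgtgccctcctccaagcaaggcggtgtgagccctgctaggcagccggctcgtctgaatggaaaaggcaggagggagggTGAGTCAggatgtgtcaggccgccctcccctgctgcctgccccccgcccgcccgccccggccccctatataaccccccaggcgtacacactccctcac

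Of 22 genes of Wnt and BMP ligands and their antagonists, 7 rose and 5 fell. Wnt2, expressed in lung mesenchyme, rose by 1.44 (SE 0.19), Wnt9a by 1.25 (SE 0.11) and Bmp2 by 1.36 (SE 0.52), while Bmp4 fell by 1.09 (SE 0.12). Wnt2 had 266, 278 and 256 normalized counts with PBS and 602, 529 and 1021 with rmTGF-β1, with no overlap. Among 15 integrin genes, 6 rose and 2 fell, with Itgb3 of the vitronectin receptor at 0.84 (SE 0.23) and the collagen-binding Itga2 at 0.82 (SE 0.28). Of 23 mesenchymal transcription factors, 7 rose and 7 fell: Sox9, a driver of cartilage matrix genes, rose by 0.74 (SE 0.22) and Runx1 by 0.57 (SE 0.06), while Prrx1 fell by 0.93 (SE 0.08) and Tcf21, a factor of lipid-storing lung fibroblasts, by 0.45 (SE 0.12). Prrx1 had 10681, 10030.0 and 9109 normalized counts with PBS and 4765, 5973 and 4883 with rmTGF-β1, and no rmTGF-β1 library reached a PBS library. Without the third rmTGF-β1 library, 5 of these genes were no longer called, at 0.60 for Bmp2, 0.27 for Sox9, -0.34 for Tcf21, 0.47 for Itgb3 and 0.35 for Itga2. Bmp2 was also lost without any single PBS library, Sox9 without the second PBS library and Itga2 without the second or the third. Sox9 was not called either when the 6 libraries were fitted alone (edgeR adjusted p = 0.101). The integrin list without the third rmTGF-β1 library had 4 rises and 2 falls, and the transcription factor list 3 rises and 3 falls.

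Several chemokine genes fell with rmTGF-β1. Of 29 inflammatory cytokine and chemokine genes, 2 rose, 11 fell and 16 did not pass the test, with a median log2 fold change of -0.55 against -0.0015 over all genes. The monocyte attractant gene Ccl2 had 14018, 11593 and 10629 normalized counts with PBS and 7193, 8077 and 8257 with rmTGF-β1, a log2 fold change of -0.62 (SE 0.17, edgeR adjusted p = 0.016). All rmTGF-β1 libraries lay below all PBS libraries. Ccl7 fell by 0.67 (SE 0.17), and Ccl3 and Ccl4, which macrophages make, by 0.89 (SE 0.14) and 1.09 (SE 0.15). The neutrophil attractant Cxcl1 had 499.9, 319 and 287 normalized counts with PBS and 81.4, 132 and 159 with rmTGF-β1, with a log2 fold change of -1.56 (SE 0.57, edgeR adjusted p = 0.06), and Cxcl2 fell by 0.78 (SE 0.21). The call of Cxcl1 was lost without PBS library 1 or rmTGF-β1 libraries 1, 2 or 3 (-1.80 to -1.28). When the 6 libraries were fitted alone it was kept, at -1.56 (SE 0.25, edgeR adjusted p = 0.0034). For Il6 the value was -0.37 (SE 0.23, edgeR adjusted p = 0.3) and for Il1b it was 0.45 (SE 0.19, edgeR adjusted p = 0.12), neither past the threshold. Il6 had 13446, 11549.6 and 9290.0 normalized counts with PBS and 7668, 9106 and 9578 with rmTGF-β1, so that the conditions overlapped. Il6 passed when the 6 libraries were fitted alone (edgeR adjusted p = 0.067), and with no filter on low counts both passed (edgeR adjusted p = 1.6e-16 for Il6 and 0.011 for Il1b), at values of -0.39 and 0.43 but SEs of 0.045 and 0.11, so that the error and not the value had moved. Il1b also passed without the second rmTGF-β1 library, at 0.60. The genes that rose were Il1a (0.75, SE 0.25) and Csf2, for which only 0, 0 and 1 reads were counted with PBS and 6, 4 and 3 with rmTGF-β1, so no fold change is given. The call of Il1a was lost without PBS library 2 or rmTGF-β1 library 3 (0.32 to 0.72), and without the third rmTGF-β1 library 1 rose and 9 fell in the list. The macrophage marker sums given above overlapped between the conditions, and their part in these chemokine values was not tested.

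The bases before the start of Cxcl1, at chr5:90890995-90891244 on the plus strand of GRCm38.p6, are shown because they hold an NF-κB motif, searched as GGGA followed 2 bases later by TTCC, with overlapping matches on both strands in capitals. This motif was found before 1.23% of the 14896 starts of genes tested, 3.53% of the 85 of genes called lower by at least 1, which is 3 starts, and 0 of the 162 of genes called higher by at least 1.
Cxcl1: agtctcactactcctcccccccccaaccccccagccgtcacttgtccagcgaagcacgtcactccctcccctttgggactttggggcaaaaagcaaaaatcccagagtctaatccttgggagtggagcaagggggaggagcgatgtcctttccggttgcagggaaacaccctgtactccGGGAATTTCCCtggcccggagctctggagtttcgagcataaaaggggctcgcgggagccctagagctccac

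Of 15 genes of the TLR4 receptor complex and its adaptors, 3 fell and the other 12 did not pass, against 11.7% of all genes that were called lower, and 4 fell without the third rmTGF-β1 library. Tlr4 fell by 0.25 (SE 0.06, edgeR adjusted p = 0.004), its partner Ly96, also called MD2, by 0.28 (SE 0.08), and Irak3, an inhibitor of the pathway, by 0.46 (SE 0.13). The call of Ly96 was lost without PBS library 3 (-0.23). The adaptor gene Myd88 had a log2 fold change of -0.09 (SE 0.05), which did not pass.

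Of 18 oxidant and detoxifying enzymes, 6 fell and the other 12 did not pass, the falls including the quinone reductase gene Nqo1 (-0.42, SE 0.10) and the retinaldehyde dehydrogenase gene Aldh1a1 (-0.54, SE 0.10). Of 15 complement genes 3 fell and the other 12 did not pass, the falls including C5ar1, the receptor of the anaphylatoxin C5a (-0.28, SE 0.07). Of 16 genes of serine, glycine and proline synthesis 5 rose and 1 fell, and of 19 sterol synthesis genes 2 rose and 3 fell, against 12.1% and 11.7% of all genes tested. Without the third rmTGF-β1 library, 2 rose and 1 fell in the serine, glycine and proline list, 4 fell in the oxidant list, 2 in the complement list, and 1 rose and 2 fell in the cell cycle list. In the cell cycle list 1 of 28 rose and 4 fell, with a median of -0.11, and the proliferation marker Mki67 had 2844, 2706 and 2696 normalized counts with PBS and 2611, 2705 and 2554 with rmTGF-β1. Its log2 fold change was -0.06 (SE 0.09, edgeR adjusted p = 0.68).

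Of 16 macrophage markers, 2 rose and 2 fell, against 12.1% and 11.7% of all genes tested, with a median of 0.02: the fractalkine receptor gene Cx3cr1 rose by 0.45 (SE 0.14) and Mertk, a receptor for apoptotic cells, by 0.30 (SE 0.09), while the mannose receptor gene Mrc1 fell by 0.43 (SE 0.08) and the scavenger receptor gene Marco by 0.51 (SE 0.13). Without the third rmTGF-β1 library 1 rose and 3 fell, and the calls of Cx3cr1 and Mertk were lost without PBS library 3 or rmTGF-β1 library 1 (0.37 to 0.42) and without PBS libraries 1 or 2 or rmTGF-β1 library 3 (0.22 to 0.26). Lyz2 had 260951, 280659 and 303315 normalized counts with PBS and 290522, 277233 and 286902 with rmTGF-β1, which overlap. Of 12 fibroblast markers, 3 rose and 4 fell, among them S100a4, which fell by 0.72 (SE 0.18). Among 8 smooth muscle and pericyte markers, Cspg4, the NG2 proteoglycan, rose by 1.15 (SE 0.10) and 3 fell. The mesothelial factor gene Wt1 fell by 0.52 (SE 0.10) and the keratin gene Krt19 by 0.40 (SE 0.13), the latter call being lost without PBS library 3 or rmTGF-β1 libraries 1 or 2 (-0.37 to -0.30). These were 2 of 6 markers of that cell type, with sums of 1278 to 1454 normalized counts with PBS and 1117 to 1205 with rmTGF-β1, whose part in the values above was not tested.

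The same protein was added to other libraries of the same genotype, in the comparison of rmCIRP+rmTGF-β1 with rmCIRP. It shares no library with the one described so far, but deviations of rmTGF-β1 libraries were correlated between these comparisons. The correlations were 0.50, 0.11 and 0.58 for same-numbered libraries and -0.64 to 0.40 for differently numbered ones. The value of 0.40 was that of the second rmTGF-β1 library with the first library with both proteins. In that comparison 32.8% of genes tested passed the threshold: 17.2% were called higher and 15.6% lower. Of the 3884 genes called for rmTGF-β1 against PBS, 3310 (85.2%) had the same direction there, and 2249 were also called, 57.9% of the 3884 and 42.2% of the 5329 called there. Of those called in both, 2159 had the same and 90 the opposite direction. The log2 fold changes had a Pearson correlation of 0.49 over all 16258 genes, which are not independent replicates and whose values share one model. The log2 fold change there was 1.81 for Cdh6, 1.73 for Jag1, 1.95 for Il11, -1.80 for Ptx3 and -1.55 for Adm. For Eln it was 0.65, with 503, 551 and 429.6 normalized counts with rmCIRP and 1134, 846 and 353 with both proteins. For the chemokine genes the value was 0.57 for Cxcl1 and 0.00 for Ccl2, and Cxcl1 had 333, 436 and 390.3 normalized counts with rmCIRP and 166, 261 and 1334 with both. Without the third library with both proteins the values were 0.99 for Eln, -0.85 for Cxcl1 and -0.37 for Ccl2, all past the threshold. The third library with both proteins stood out in these counts, and it departed from the other two by a chi-square per degree of freedom of 45.7 and 31.3. Without it the correlation over all genes was 0.49, and without the third rmTGF-β1 library it was 0.32. The contractile list there had a median of -0.36 and 20 of 25 genes lower, or -0.19 and 16 without the third library with both proteins. Whether the comparisons differ in these genes was not tested.

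In WT cells, rmTGF-β1 against PBS gave 2019 genes past the threshold, 12.4% of genes tested, with 5.77% higher and 6.65% lower. Without the third PBS library of WT the count was 1253 and without the second rmTGF-β1 library it was 1029. Of the 3884 genes called in cells labelled TLR4-/-, 3377 (86.9%) had the same direction in WT cells, and 1325 were also called, 34.1% of the 3884 and 65.6% of the 2019. The median size of the log2 fold change of those 3884 genes was 0.26 in cells labelled TLR4-/-, where they were selected, and 0.15 in WT cells. The WT values were 1.89 for Cdh6, 1.87 for Eln, 1.17 for Jag1, 0.71 for Il11, -1.39 for Ptx3, -1.37 for Adm, -0.21 for Ccl2 and 0.02 for Acta2. The genotypes' responses were also tested against each other, the WT value being subtracted from that of the label TLR4-/-, and 14 genes (0.0861%), 6 higher (0.0369%) and 8 lower (0.0492%), passed the threshold in edgeR's quasi-likelihood test, while 1686 (10.4%) had an unadjusted p under 0.05. For Acvr1, a type I receptor for BMPs and activins, the difference was 0.40 (SE 0.07, edgeR adjusted p = 0.044). The greatest was that of Bc1, 3.23 (SE 0.65, edgeR adjusted p = 0.088), and the others named were Tmem86a (0.61) and Gtf2h2 (0.47) with higher values and Fam174a (-0.43), Kctd12 (-0.40), Rras2 (-0.39) and Cited2 (-0.38) with lower ones. None of Cdh6, Jag1, Eln, Il11, Ptx3, Adm and Ccl2 passed in this test, which does not show that their responses were alike. These calls changed with single libraries: 0 genes passed without PBS library 1 or 2 or rmTGF-β1 library 2 or 3 of WT, or without PBS library 2 or rmTGF-β1 library 1 labelled TLR4-/-, with 1423 to 1552 at an unadjusted p under 0.05 in these fits. Without PBS library 1 or 3 labelled TLR4-/- the count was 4 or 24, and without rmTGF-β1 library 2 or 3 of that label it was 119 or 37. DESeq2 with all libraries called 163.

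**Figure D4:**
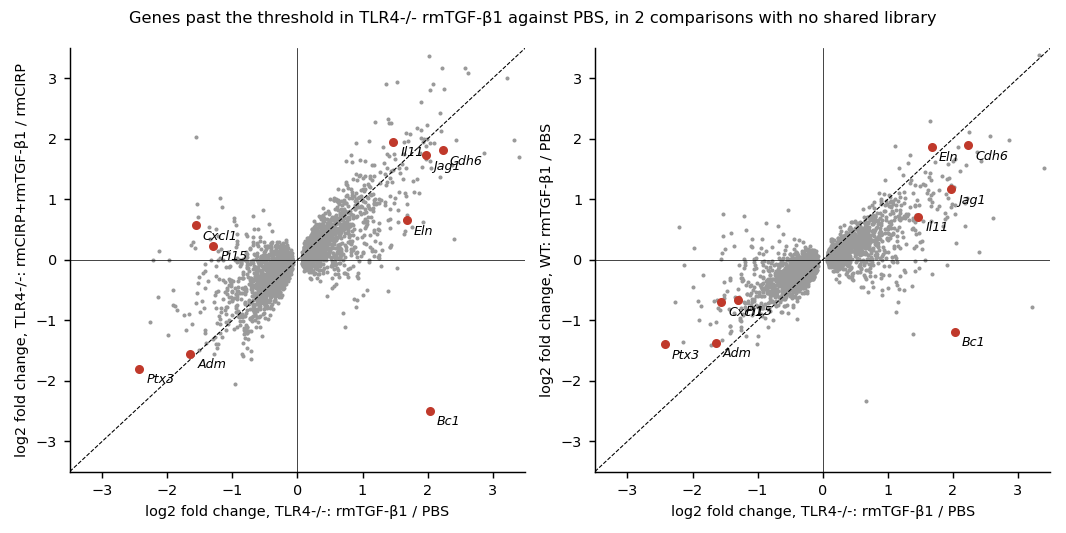
The 3884 genes called for rmTGF-β1 against PBS in libraries labelled TLR4-/- are placed by that log2 fold change on the x axis and, on the y axis, by their log2 fold change for rmCIRP+rmTGF-β1 against rmCIRP in the same genotype (left) or for rmTGF-β1 against PBS in WT cells (right); the dashed line marks equal values and points beyond 3.5 are not drawn. Most points share their sign in both panels (85.2% and 86.9%), Cdh6 and Adm lie near the line, and Bc1 changes sign in both.

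The departure of each rmTGF-β1 library from the mean of the other two was described as the spread of its log2 values over all genes tested. The SD was 0.26 for the first library, 0.30 for the second and 0.31 for the third, against 0.26 to 0.27 for the PBS libraries. For libraries of the same label with rmCIRP+rmTGF-β1 it was 0.33, 0.27 and 0.40. Over the 11345 genes that averaged 100 normalized counts or more, the SDs of the rmTGF-β1 libraries were 0.114, 0.175 and 0.197. Of these genes 3, 36 and 52 lay more than 1 log2 unit from the mean of the other libraries. The third was thus the farthest of the 3 rmTGF-β1 libraries, and the second, set against a mean that includes the third, came next. Each rmTGF-β1 library was also set against responses measured elsewhere. The slope of its difference from the PBS mean on the WT response, over the 2019 genes called in WT cells, was 0.78, 0.56 and 0.86. On the response to rmTGF-β1 added to rmCIRP in cells labelled TLR4-/-, over 5329 genes, the slopes were 0.41, 0.23 and 0.75, and those of the PBS libraries were within -0.02 and 0.02. That response includes the third library with both proteins, and when it was measured without it, over 3796 genes, the slopes were 0.58, 0.37 and 0.87. The third library had the steepest slope each time, and the second the shallowest.

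Among the genes highest in the third library relative to the other two, of those that averaged 50 normalized counts or more in the 6 libraries, were Serpinb2, Xirp2, Bmp2, the adhesion gene Flrt3 and Igfbp3. Serpinb2, plasminogen activator inhibitor 2, had 5047, 5239 and 18563 normalized counts with rmTGF-β1 and 7388, 6294 and 6014 with PBS, so that only the third library lay above the PBS libraries. Igfbp3 had 628, 589.8 and 1616 with rmTGF-β1 and 523, 531 and 437 with PBS. In the libraries with rmCIRP+rmTGF-β1, Serpinb2 had 10093, 19464 and 42964 normalized counts, Igfbp3 829, 1144 and 3785 and Bmp2 159, 217 and 706, with the third library highest in each. Across genes that averaged 100 or more normalized counts, deviations of the third rmTGF-β1 library and the third library with both proteins were correlated at 0.58, a description only. These were deviations from the condition means, and those of the first and the second libraries had 0.50 and 0.11. The second rmTGF-β1 library and the first library with both proteins had 0.40, so the number alone did not order the values.

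The 6 genes lowest in the third library were all genes induced by type I interferon: Ifit1, Usp18, Rtp4, Ifi44, Rsad2 and Ifit3. Ifit1, which binds foreign RNA caps, had 141, 536 and 61.1 normalized counts with rmTGF-β1 and 145, 114 and 486 with PBS. The second rmTGF-β1 library, which raises the mean that the third was set against, and the third PBS library were high, and the third rmTGF-β1 library was the lowest of the 6. Usp18, which removes ISG15 from proteins, had 113, 346 and 46.1 with rmTGF-β1 and 141, 68.9 and 155 with PBS, and Isg15 itself 402, 654 and 173 and 456, 148 and 253. In cells labelled TLR4-/- with rmCIRP the second library was the high one, with 131, 645 and 122 normalized counts of Ifit1. Of the 18 interferon-stimulated genes tested, 2 were called lower with rmTGF-β1 and the other 16 did not pass, at a median log2 fold change of 0.22. The falls were those of Rsad2 (-1.51, SE 0.53) and Ifit2 (-0.73, SE 0.20). The call of Rsad2 was lost without PBS library 3 or rmTGF-β1 libraries 1 or 3 (-1.48 to -0.38), and when the 6 libraries were fitted alone (edgeR adjusted p = 0.16). Leaving out the third rmTGF-β1 library, 2 rose and 1 fell in the list. Rsad2, the antiviral enzyme viperin, had 54.9, 104 and 18.6 normalized counts with rmTGF-β1 and 71.1, 78.4 and 335 with PBS, and its groups overlapped.

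**Figure D5:**
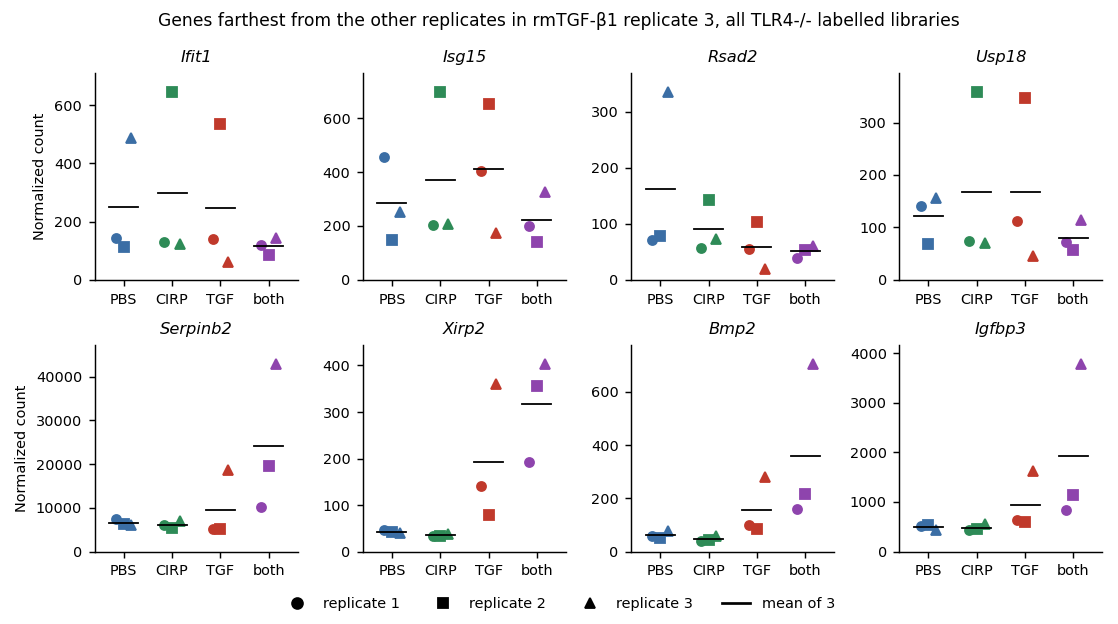
Normalized counts in all 12 libraries labelled TLR4-/- of Isg15, of 3 of the genes lowest in the third rmTGF-β1 library (top) and of 4 of the genes highest in it (bottom); TGF and CIRP stand for the recombinant proteins, symbols give the replicate number, bars the mean, and each y axis starts at 0. In the top row the second replicate is highest with rmCIRP and with rmTGF-β1 and the third is lowest with rmTGF-β1 in all 4 genes, while in the bottom row the third replicate is highest with rmTGF-β1 and with both proteins.

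The sequences before the starts of Isg15 and Ifit1 are shown because the 6 genes lowest in the third library belong to this family, in which the second rmTGF-β1 library was high. Both hold the interferon-stimulated response element, searched on both strands as GAAA followed 2 bases later by GAAA and marked in capitals, with overlapping copies in Isg15. They lie at chr4:156200819-156201068 on the minus strand and chr19:34640639-34640888 on the plus strand of GRCm38.p6, both taken as the bases just before the start, and Ifit1 carries the motif on the opposite strand. The motif was found before 8 of 13 starts of the listed interferon-stimulated genes that had an entry and before 2.66% of the 14896 starts of all genes tested.
Isg15: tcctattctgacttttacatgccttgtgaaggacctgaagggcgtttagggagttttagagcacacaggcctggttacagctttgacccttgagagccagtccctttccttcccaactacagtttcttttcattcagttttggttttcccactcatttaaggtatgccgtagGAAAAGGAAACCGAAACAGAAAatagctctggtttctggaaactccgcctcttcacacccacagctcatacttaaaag
Ifit1: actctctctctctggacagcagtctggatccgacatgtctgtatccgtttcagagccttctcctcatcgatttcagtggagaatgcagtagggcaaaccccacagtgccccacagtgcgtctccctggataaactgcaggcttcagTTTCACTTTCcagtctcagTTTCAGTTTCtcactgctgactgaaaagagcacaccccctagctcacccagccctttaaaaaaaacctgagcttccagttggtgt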

How the data were processed

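RNA of pulmonary fibroblasts was sequenced in 24 libraries, 3 for each of 8 conditions. Per the labels, libraries were made with a stranded total RNA kit, read quality was checked with FastQC and reads were counted per gene with HTSeq. The deposited values are raw read counts for 55291 gene names; the 5 tally lines, among them 14.5 to 16.1% of reads not assigned to a gene, were left out. The submitters' processing notes name the build NCBIM37, while 53292 names match GENCODE M21, so no coordinate was taken from the counts. The strand setting of the counting is not given in the sources used here.

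Counts were tested with edgeR 4.0.16 (TMM scaling, filterByExpr, quasi-likelihood test, R 4.3.3, limma 3.58.1) with 1 mean per condition over all 24 libraries and Benjamini-Hochberg adjustment over 16258 genes, at 0.1. SE is the log2 fold change divided by the root of F. Scripts were tested on simulated data. Alternatives were RLE scaling, no filter, a mean count of at least 10, the replicate block, fewer libraries, DESeq2 1.42.0 and each library left out; comparisons without a doubted library of correlations, list counts and some genes were added after the data were seen. Genes named are members of the lists and the 12 largest rises and falls averaging 50 or more normalized counts with no overlap. Others are the 6 genes most above and below in the third rmTGF-β1 library, and the 4 highest and lowest genotype differences. Some genes that these rules name are not reported here. Members and lists were chosen with earlier results of these data known. With at least 29853346 reads on genes per library, the replicate spread is the main error for all but low counts. Promoters were RefSeq sequences of GRCm38.p6, the 250 bases before each start.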

Additional observations from a re-analysis of the deposited data

Results flagged for a closer look

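In the direct test of the response to rmTGF-β1, label TLR4-/- against WT, 14 of the 16258 genes tested passed the threshold. The genes named from these, each with the log2 difference left after the WT response is subtracted, were Bc1 at 3.23, Tmem86a at 0.61, Gtf2h2 at 0.47 and Acvr1 at 0.40 among those with a higher value, and Fam174a at -0.43, Kctd12 at -0.40, Rras2 at -0.39 and Cited2 at -0.38 among those with a lower one. For Bc1, the WT mean was 1101 ± 291 normalized counts with PBS and 489 ± 270.0 with rmTGF-β1 (SD, n = 3). This is the opposite direction to that in cells labelled TLR4-/-. The count of 14 became 0 to 119 when a single library was left out. Whether each genotype was 1 pool of lungs is not stated, and if so genotype and pool cannot be told apart.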

How the results depend on the processing

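For rmTGF-β1 against PBS in cells labelled TLR4-/-, the count of 3884 genes was 3884 with RLE scaling, 3559 with no filter, 3901 with a mean count of at least 10, 3497 with DESeq2 and 3264 in a fit of the 6 libraries alone, and 2517 to 3783 with a single library left out, the lowest without the third rmTGF-β1 library. Leaving out that library reversed Acta2 (-0.0969 to 0.0497 over these fits), Cnn1 (-0.0792 to 0.0821) and Myl9 (-0.122 to 0.0141), none of them called. For rmCIRP+rmTGF-β1 against rmCIRP the count was 2710 in a fit of those conditions alone and 3802 to 5985 with a single library left out, and for WT it was 1029 to 1690, 1253 without the third PBS library and 1029 without the second rmTGF-β1 library. The genotype difference gave 563 genes with no filter, 23 with a mean count of at least 10, 163 with DESeq2 and 0 to 119 with a single library left out. The cause of these changes was not tested. The SD of the departure at a mean of at least 100 normalized counts was 0.114, 0.175 and 0.197 for the 3 rmTGF-β1 libraries. Same-numbered PBS and rmTGF-β1 libraries labelled TLR4-/- had residual correlations of -0.10, -0.23 and -0.20, so the numbers were not taken to pair them. For same-numbered rmTGF-β1 and rmCIRP+rmTGF-β1 libraries of that label they were 0.50, 0.11 and 0.58. Differently numbered libraries of these 2 conditions had -0.64 to 0.40. With the replicate block, 3954 genes were called, and 5359, 2109 and 22 in the comparison with rmCIRP, in WT and for the genotype difference. Low counts such as those of Csf2 limit what depth can show.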
